A study of Mus musculus with 40 samples.

Results

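The comparison described here sets gastrocnemius muscle of mice whose running wheel was open during the day against that of mice whose wheel was open at night, both taken at ZT4. Zeitgeber time (ZT) counts hours from lights on, so ZT4 lies in the light phase, when mice mostly rest. The members are the 4 libraries titled DA at ZT4 and the 4 titled CTRL at ZT4, which make 8 of the 40 libraries of the series, and all genes of the count table were examined in them. The labels give every mouse as C57BL/6 and the tissue as skeletal muscle. They describe the DA mice as a day activity group and the CTRL mice as a night activity group, so the control mice also had a wheel. The same 2 groups were also sampled at ZT16, with 4 libraries each, and those 8 libraries serve here to estimate the spread and to set each ZT4 value beside its value in the dark phase. The other 24 libraries are quadriceps from sedentary and treadmill-run mice. The title of the series asks whether endurance training acts as a zeitgeber, a time cue that can set a clock. The hours of wheel access, the distance run, and the age and sex of the mice are not stated in the labels. The libraries of a group carry numbers with no statement that each came from a separate animal, so the p-values below measure the spread between these libraries.

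Muscle fibres carry a molecular clock. The activators BMAL1 (gene Arntl) and CLOCK or NPAS2 switch on the Period, Cryptochrome and REV-ERB genes, whose products then repress the activators or their genes. Clock output factors such as DBP, TEF and HLF pass the rhythm on through D-box sequences, and E-box sequences are where the activators bind. Muscle contraction also changes transcription directly, by way of calcium, cyclic AMP, mechanical strain and energy stress, and immediate early genes and the coactivator PGC-1alpha (gene Ppargc1a) are well-known early parts of that response.

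The depth was 45010631 to 70033331 estimated counts per library at ZT4, and 14523 genes passed the filter on low counts. Values are CPM, a library's count of a gene relative to its total, after scaling between libraries, a quantity not corrected for gene length, so levels are compared between groups and not between genes. The tissue label fitted the fast-fibre genes: Myh4, the fast myosin heavy chain IIb, averaged 61760 CPM in the night libraries and 62690 CPM in the day libraries. Slow-fibre genes varied within groups more than between them. Their summed level over 12 genes was 2363, 3157, 3860 and 3522 CPM in night libraries 1 to 4 and 2314, 3494, 5296 and 3332 CPM in day libraries 1 to 4, so day library 3 was the highest and library 1 the lowest of each group. On a multidimensional scaling of the 16 gastrocnemius libraries, the 4 night libraries at ZT4 lay between -0.32 and -0.20 on the second axis and the 4 day libraries at ZT4 between 0.47 and 0.73.

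Promoter sequences were looked up for the clock genes and the genes with the largest differences, to show which of them hold motifs bound by clock and signal-regulated factors. RefSeq's table for build GRCm38.p6 gave windows from 250 bases before to 50 bases after a transcript start for 23 of 27 clock list genes, 8 of the 12 largest rises and 10 of the 12 largest falls. Per2, Banp, Abra and Gbp10 among the rises and Bcl6b and Foxo6 among the falls had no window, so their promoters were not searched. On either strand, the E-box CACGTG was found in 9 of those 23 clock genes. Among the rises with a window it was found in Otud1 alone, and among such falls in Gadd45b alone. It occurs in 7.15% of all 32851 windows of the table. The D-box TTATGNAA was found in 3 clock genes and in 3.38% of all windows. The core of the ROR and REV-ERB element, TAGGTCA, was found in 2 clock genes and in 2.61% of all windows. The cyclic AMP response element TGACGTCA was found in 1 clock gene (Hlf), in Slc25a25 among the rises and in 1.79% of all windows. The full palindromic glucocorticoid response element was found in none of the 3 sets and in 0.00913% of all windows. None of these motifs overlapped another in the windows printed. A gene with several windows counts once if any window held the motif, so the shares of genes and of windows are not on the same base. The 5 windows below belong to genes whose RNA rose or fell in the comparison and that held a match. They are written 5′ to 3′ along the gene, in lower case with the motif in capitals.
Per3 (chr4:151044616-151044915, minus strand, 2 D-boxes): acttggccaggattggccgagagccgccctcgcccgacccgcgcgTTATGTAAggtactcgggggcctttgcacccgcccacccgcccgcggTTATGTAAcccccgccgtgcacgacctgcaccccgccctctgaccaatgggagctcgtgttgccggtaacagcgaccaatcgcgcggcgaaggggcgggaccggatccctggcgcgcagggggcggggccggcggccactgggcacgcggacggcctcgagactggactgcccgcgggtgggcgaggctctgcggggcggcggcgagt
Coq10b (chr1:55052520-55052819, plus strand, a D-box on the other strand, then an E-box): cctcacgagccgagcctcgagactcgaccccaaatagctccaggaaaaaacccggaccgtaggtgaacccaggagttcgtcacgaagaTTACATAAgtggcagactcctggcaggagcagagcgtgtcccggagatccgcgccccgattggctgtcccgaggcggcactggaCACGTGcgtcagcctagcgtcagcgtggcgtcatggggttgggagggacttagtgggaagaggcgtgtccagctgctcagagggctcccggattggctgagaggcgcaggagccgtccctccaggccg
Bhlhe41 (chr6:145865371-145865670, minus strand, an E-box): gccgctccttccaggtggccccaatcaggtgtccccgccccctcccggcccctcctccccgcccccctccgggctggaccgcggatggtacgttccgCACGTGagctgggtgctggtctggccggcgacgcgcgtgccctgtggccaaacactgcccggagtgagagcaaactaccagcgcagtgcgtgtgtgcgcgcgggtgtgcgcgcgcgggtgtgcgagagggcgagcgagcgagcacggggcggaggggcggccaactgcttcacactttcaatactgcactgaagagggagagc
Otud1 (chr2:19657481-19657780, plus strand, an E-box): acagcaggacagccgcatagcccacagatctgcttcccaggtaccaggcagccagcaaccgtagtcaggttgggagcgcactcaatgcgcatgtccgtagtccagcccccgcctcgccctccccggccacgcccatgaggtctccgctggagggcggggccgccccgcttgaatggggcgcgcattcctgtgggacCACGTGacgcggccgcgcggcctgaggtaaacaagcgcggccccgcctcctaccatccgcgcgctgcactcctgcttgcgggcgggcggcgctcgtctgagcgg
Slc25a25 (chr2:32424017-32424316, minus strand, a cyclic AMP response element in 1 of its 3 windows): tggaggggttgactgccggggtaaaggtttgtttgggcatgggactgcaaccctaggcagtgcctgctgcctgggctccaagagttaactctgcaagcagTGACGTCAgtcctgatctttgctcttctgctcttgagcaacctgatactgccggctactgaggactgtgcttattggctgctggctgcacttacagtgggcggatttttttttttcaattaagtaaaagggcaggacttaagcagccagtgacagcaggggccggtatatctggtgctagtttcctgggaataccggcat

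The wheel schedule went with a broad difference at ZT4. Genes were called at a Benjamini-Hochberg adjusted p below 0.05 in edgeR's quasi-likelihood test, and 1907 genes (13.1% of those tested) were called. Of these, 923 (6.36%) were higher and 984 (6.78%) were lower with the day wheel, and with upper-quartile scaling the split was 770 higher and 1147 lower. Most differences were small: 76 of the called genes were at least 2-fold higher and 56 at least 2-fold lower, and the median log2 fold change over all tested genes was -0.01. In 1691 of the 1907 called genes, all 4 day libraries lay on one side of all 4 night libraries, which held for 21.1% of all tested genes. The count fell to between 1139 and 1650 when 1 ZT4 library was left out, with 1248 without night library 2, 1196 without day library 4 and 1139 without day library 3, which is also the library with the highest slow-fibre level. Whether that level had a part in the count was not tested.

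Called genes were ranked by fold change if their mean level was 1 or more on the log2 CPM scale and the groups did not overlap. The 12 largest rises included an orphan nuclear receptor, a clock repressor, a metabolic coactivator, stress factors and heat shock genes. Nr4a3 (chr4:48045078-48086447, RefSeq GRCm38.p6), a nuclear receptor induced by exercise and cyclic AMP, stood at 0.824, 0.772, 0.426 and 2.00 CPM in the night libraries and at 16.7, 15.3, 10.6 and 17.0 CPM in the day libraries. All day libraries were far above all night libraries, and the gene rose 13.9-fold (log2 fold change 3.80 ± 0.47 SE, adjusted p = 0.00036). Per2 (chr1:91415977-91459351), a core repressor of the clock, was at 2.80, 1.88, 2.19 and 3.04 CPM with the night wheel and at 15.9, 10.1, 18.3 and 23.4 CPM with the day wheel. The lowest day library was thus above the highest night library, and the log2 fold change was 2.75 ± 0.24 (adjusted p = 3.1e-05). Ppargc1a (chr5:51454249-52115853), the coactivator of mitochondrial gene programmes, was almost level over the night libraries at 28.6, 29.9, 28.3 and 28.5 CPM and spread over 110.3, 142, 123 and 199 CPM in the day libraries. It rose 4.98-fold (log2 fold change 2.32 ± 0.23, adjusted p = 0.00011).

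Slc25a25 (chr2:32414487-32451470), which encodes a calcium-binding mitochondrial carrier of ATP-Mg and phosphate, had 9.58, 5.32, 8.21 and 9.49 CPM in the night libraries and 67.3, 28.1, 42.4 and 45.8 CPM in the day libraries (log2 fold change 2.49 ± 0.38, adjusted p = 0.0014). Otud1 (chr2:19657731-19661279), a deubiquitinase gene whose promoter is printed above with an E-box, had 5.31, 5.38, 4.58 and 3.43 CPM against 27.1, 17.6, 30.4 and 20.6 CPM (2.37 ± 0.20, adjusted p = 1.9e-05). Atf3 (chr1:191170296-191183333), a stress-induced transcription factor, had 2.71, 3.13, 2.17 and 4.59 CPM against 15.8, 15.0, 21.4 and 8.88 CPM (2.25 ± 0.29, adjusted p = 0.00038). In each of these genes the lowest day library exceeded the highest night library. Banp, which encodes a nuclear DNA-binding protein, rose from 4.14 ± 0.520 to 20.2 ± 2.12 CPM (mean ± SD, n = 4 libraries in each group). Abra, which encodes an actin-binding protein of the sarcomere, rose from 78.2 ± 16.03 to 231 ± 40.0 CPM. The other named rises were Gbp10 (1.63 on the log2 scale), Lrrc52 (1.62), and the 2 inducible HSP70 genes Hspa1b (1.98) and Hspa1a (1.69), whose sequences are nearly identical, so the split of reads between them is uncertain.

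The 12 largest falls by the same ranking were smaller in size, from -1.59 for Dusp10 to -0.9999 for Pitx3 on the log2 scale. Dusp10 (chr1:184034381-184075636), a phosphatase that switches off the stress kinases JNK and p38, was at 64.9, 74.4, 62.4 and 50.7 CPM with the night wheel and at 16.5, 25.9, 20.6 and 20.8 CPM with the day wheel (log2 fold change -1.59 ± 0.27, adjusted p = 0.0028). Trp53i11 (chr2:93187349-93201757), a p53-inducible gene, had 10.7, 11.9, 16.5 and 14.3 CPM against 4.86, 5.40, 4.20 and 3.97 CPM (-1.53 ± 0.18, adjusted p = 0.00013). The highest day library was below the lowest night library in both genes. Gadd45b, a stress-induced growth arrest gene, fell from 20.7 ± 3.62 to 8.81 ± 1.85 CPM, so this stress gene moved opposite to Atf3. Tnfaip2, an inflammation-induced gene, fell from 86.4 ± 13.7 to 37.7 ± 4.84 CPM. Among them were genes of transcription regulators, namely Foxo6 (from 6.70 ± 0.434 to 3.06 ± 0.657 CPM), Cited4 (from 26.2 ± 2.66 to 12.4 ± 3.47 CPM) and Pitx3 (from 3.11 ± 0.732 to 1.54 ± 0.114 CPM). Bcl6b (-1.22), Amigo3 (-1.15), Wdr6 (-1.10) and Igf2bp2 (-1.08) fell too. The gene 1700001O22Rik was at 17.1, 18.5, 19.2 and 39.0 CPM against 8.51, 11.98, 5.98 and 14.7 CPM (-1.20 ± 0.36, adjusted p = 0.049). Its call did not hold in any of the 8 fits without 1 ZT4 library (adjusted p 0.051 to 0.15).

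**Figure D1:**
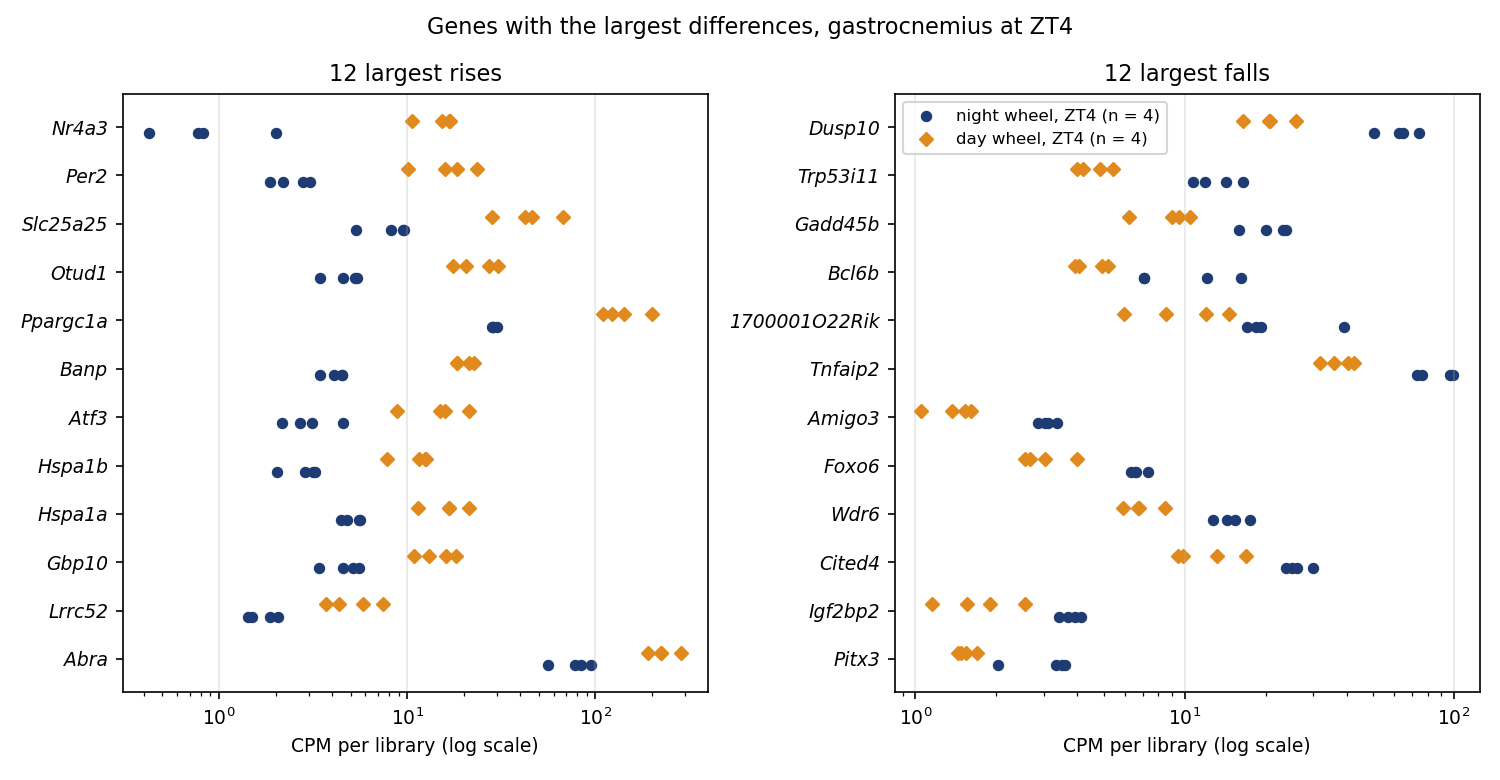
CPM of the 12 genes with the largest rises (left) and the 12 with the largest falls (right) at ZT4, on a log axis, with 1 point for each library: circles for the 4 night wheel libraries, diamonds for the 4 day wheel libraries. The groups do not overlap in any gene drawn, as the ranking required. Nr4a3 spans 0.426 to 2.00 CPM in the night libraries and 10.6 to 17.0 CPM in the day libraries.

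In the clock, both activators and repressors held genes of either direction. Of 6 activators, 2 rose and 1 fell, beside 6.36% of all genes called higher and 6.78% called lower. Npas2, a partner of BMAL1, had 3.21, 4.46, 2.94 and 3.14 CPM with the night wheel and 2.47, 2.11, 1.28 and 1.20 CPM with the day wheel, with no overlap (log2 fold change -0.95 ± 0.21, adjusted p = 0.0058). Arntl had 37.5, 44.6, 34.4 and 38.0 CPM against 31.9, 32.8, 25.7 and 28.04 CPM. Its day libraries were all lower, but the difference of -0.38 ± 0.21 did not pass (adjusted p = 0.27, and 0.028 in a fit of the 8 ZT4 libraries alone). Clock was close to level at 30.8 ± 1.67 and 29.8 ± 0.542 CPM (adjusted p = 0.72). The nuclear receptor Rora, which activates Arntl, rose by little (0.30 ± 0.09, adjusted p = 0.03). Rora lost its call without night library 1, 2 or 3 or day library 3 or 4 (adjusted p 0.058 to 0.089). Rorb was low in both groups at 0.291 ± 0.0876 and 0.285 ± 0.0448 CPM.

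Among 10 repressors, 3 rose and 1 fell, beside 6.36% of all genes called higher and 6.78% called lower. Beside Per2, Per3, whose promoter with 2 D-boxes is printed above, was at 17.8, 13.6, 16.2 and 13.6 CPM with the night wheel and at 22.1, 19.6, 26.9 and 23.2 CPM with the day wheel (log2 fold change 0.59 ± 0.13, adjusted p = 0.009). Nr1d2, the gene of REV-ERB beta, was at 74.8, 62.4, 66.7 and 70.3 CPM against 90.6, 83.02, 107 and 99.5 CPM (0.47 ± 0.08, adjusted p = 0.0013). Its sister gene Nr1d1 had the opposite sign, with 268, 302, 277 and 267 CPM against 209, 235, 202 and 184 CPM. The groups did not overlap, yet the difference of -0.43 ± 0.17 passed only in the fit of the 8 ZT4 libraries alone (adjusted p = 0.0029, against 0.11 with all 16). Bhlhe41, an E-box repressor also called DEC2, had 51.1, 49.8, 57.6 and 59.99 CPM against 29.6, 31.1, 28.4 and 28.2 CPM and fell (-0.90 ± 0.10, adjusted p = 0.0001).

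Per1 was at 21.2, 10.4, 10.9 and 9.65 CPM with the night wheel and at 39.0, 17.5, 22.2 and 24.5 CPM with the day wheel. Library 1 was the highest of each group, and the difference of 0.99 ± 0.37 did not pass (adjusted p = 0.099, 0.042 without night library 1 and 0.043 in DESeq2). Ciart, the CHRONO repressor, differed by 0.91 ± 0.34 (adjusted p = 0.096), and 5.59 CPM in day library 4 was its highest value. Cry1 (-0.06 ± 0.08), Cry2 (0.19 ± 0.07) and Bhlhe40 (-0.09 ± 0.15) did not pass, with adjusted p of 0.67, 0.076 and 0.75.

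Of 11 clock output factors, 6 rose and none fell, beside 6.36% of all genes called higher and 6.78% called lower. Tef, a D-box activator, had 274, 251, 264 and 272 CPM with the night wheel and 318, 286, 313 and 334 CPM with the day wheel (log2 fold change 0.24 ± 0.05, adjusted p = 0.0034). Hlf, of the same family, rose from 11.3 ± 0.868 to 15.7 ± 1.24 CPM, and Nfil3, the repressor at D-boxes, rose as well, from 24.01 ± 3.54 to 35.0 ± 4.17 CPM. Dbp, the third member of the family of Tef and Hlf, had 49.4, 44.8, 51.4 and 50.9 CPM against 38.5, 38.8, 39.3 and 51.9 CPM. Here 3 of the 4 day libraries lay below all night libraries and day library 4 above them, and the difference of -0.22 ± 0.17 did not pass (adjusted p = 0.44). Coq10b, a coenzyme Q-binding protein gene (0.90 ± 0.14), Lonrf3, a ring finger gene (1.08 ± 0.17), and Usp2, a deubiquitinase gene (0.29 ± 0.07), rose. Wee1 (0.33), Ppp1r3c (0.45), Bcl6 (0.82) and Nampt (-0.06) did not pass, though Ppp1r3c did in the fit of the 8 ZT4 libraries (adjusted p = 0.009). Over 7 kinases and ligases of the clock, edgeR called 0, with 1 at an unadjusted p below 0.05 and 1 called in DESeq2. Of 2 cold-inducible RNA-binding protein genes, Cirbp fell by 0.26 on the log2 scale (adjusted p = 0.017, 0.06 without night library 2). The medians of the 3 clock lists were -0.02 for activators, 0.33 for repressors and 0.45 for output factors, beside -0.01 for all genes.

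At ZT16 the clock genes stood differently. Per2 averaged 39.7 ± 3.40 CPM with the night wheel and 28.6 ± 2.65 CPM with the day wheel at ZT16, and the 16.9 ± 5.55 CPM of the day wheel at ZT4 lies between those levels and the 2.48 ± 0.535 CPM of the night wheel at ZT4. At ZT4 edgeR called 6.36% of all genes higher and 6.78% lower. Of the 27 clock genes in the 3 lists, it called 11 higher and 2 lower (Npas2 and Bhlhe41) at ZT4. At ZT16 it called 0 of these, with 10 at an unadjusted p below 0.05, beside 0.565% of all genes called. The difference between the schedule effects at the 2 times, tested as an interaction, passed for Per2 (3.23 on the log2 scale, adjusted p = 4.4e-05), Bhlhe41 (-1.30, 6.8e-05), Coq10b (1.36, 0.0005), Nr1d2 (0.57, 0.0041) and Npas2 (-1.52, 0.023). It passed also for Per1 (1.97, adjusted p = 0.031) and Ciart (1.87, 0.028), which did not pass at either time alone.

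**Figure D2:**
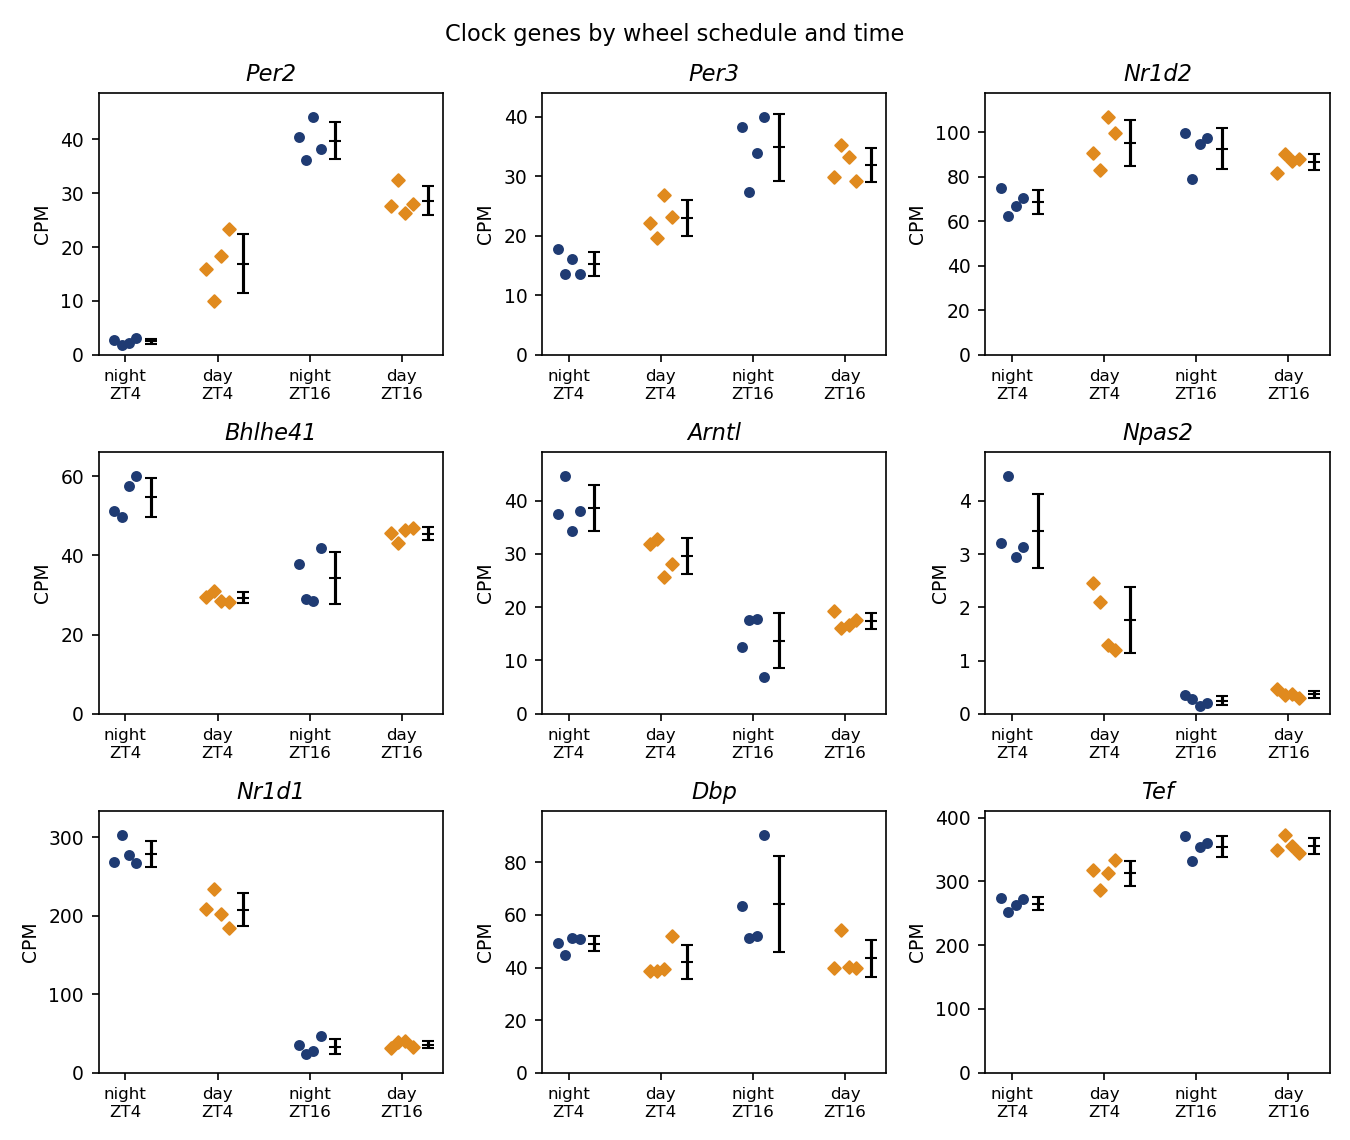
CPM of 9 clock genes in each library of the 4 gastrocnemius groups (circles, night wheel; diamonds, day wheel; 4 libraries each), with the mean and SD drawn beside the points. At ZT4 Per2, Per3, Nr1d2 and Tef are higher and Bhlhe41 and Npas2 lower with the day wheel, while Arntl, Nr1d1 and Dbp did not pass the test.

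Immediate early genes, which answer signals without new protein synthesis, included 10 genes that rose and none that fell among 27 tested, beside 6.36% of all genes called higher and 6.78% called lower. The other 17 did not pass, 9 of the 27 had a log2 fold change below 0, and the median was 0.13. Beside Nr4a3 and Atf3, Maff, a small Maf factor, had 2.17, 1.86, 2.36 and 2.27 CPM with the night wheel and 3.82, 3.73, 4.18 and 4.80 CPM with the day wheel (0.93 ± 0.13, adjusted p = 0.00016). Klf4, a zinc finger factor named after its value was seen, rose from 10.9 ± 2.12 to 22.3 ± 1.36 CPM, and Ier5 rose from 7.13 ± 0.990 to 11.4 ± 1.80 CPM. At ZT16 the list leaned the other way, with 4 genes lower and none higher with the day wheel and a median of -0.53, against 0.289% of all genes called lower there.

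In the programme of PGC-1 and nuclear receptors, 4 of 18 genes rose and 2 fell. The shares of all genes called were 6.36% higher and 6.78% lower. Ppara, the receptor that drives fatty acid oxidation genes, had 15.7, 19.0, 17.1 and 14.2 CPM with the night wheel and 34.6, 34.6, 54.0 and 40.2 CPM with the day wheel (log2 fold change 1.31 ± 0.21, adjusted p = 0.0019). Pparg, of the same family, rose from 1.97 ± 0.312 to 3.03 ± 0.497 CPM. Nr2f6 fell from 13.9 ± 0.401 to 10.7 ± 0.840 CPM, and Ppargc1b, the sister gene of Ppargc1a, fell from 7.72 ± 1.16 to 5.31 ± 0.887 CPM, so the 2 coactivators moved apart. Ppargc1b lost its call without night library 1, 2 or 4 or day library 2 or 4 (adjusted p 0.051 to 0.1). Lists of genes that these factors are known to drive held no call. Over 27 nuclear genes of oxidative phosphorylation edgeR called 0, with 5 at an unadjusted p below 0.05 and 3 called in DESeq2, and the median was 0.06 with 25 of 27 above 0. The smallest p was that of Uqcrc2, a core subunit of complex III, at 438 ± 15.3 and 479.8 ± 27.4 CPM (adjusted p = 0.064, 0.033 without day library 1). Over 13 mitochondrially encoded genes edgeR called 0, with 1 at an unadjusted p below 0.05 and 0 in DESeq2. Over 28 genes of fatty acid use edgeR called 0, with 1 at an unadjusted p below 0.05 and 0 in DESeq2.

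Among 22 genes of lipogenesis and sterol synthesis 7 fell and 2 rose, beside 6.78% of all genes called lower and 6.36% called higher. The other 13 did not pass, and the median log2 fold change was -0.04 with 10 of 22 above 0. Sqle, squalene epoxidase of the cholesterol pathway, was at 1.86, 2.40, 3.81 and 1.42 CPM with the night wheel and at 1.03, 0.678, 0.536 and 0.750 CPM with the day wheel (log2 fold change -1.65 ± 0.26, adjusted p = 0.00063). Srebf2, a transcription factor that switches on genes of this pathway, fell from 23.4 ± 2.21 to 17.8 ± 1.59 CPM, and Scd2, a fatty acid desaturase, from 62.5 ± 11.3 to 32.9 ± 4.54 CPM. The 2 genes that rose, named after their values were seen, make and desaturate fatty acids: Scd1 had 110.3, 133, 124 and 91.9 CPM against 285, 184, 271 and 149.9 CPM, and Elovl6 went from 2.05 ± 0.747 to 4.19 ± 2.02 CPM (adjusted p = 0.033). Elovl6 overlapped between the groups and lost its call without night library 1, 2 or 4 or day library 1 or 3 (0.069 to 0.093). Scd1 and Elovl6 had the same sign at ZT16 (1.00 and 1.16), with adjusted p of 0.055 and 0.12 there.

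Genes of fuel handling and growth signalling mostly did not pass. Of 27 genes for glucose and glycogen handling 1 rose and 2 fell, which is near the shares of all genes called (6.36% higher, 6.78% lower). Hk2, the hexokinase that traps glucose in the fibre, rose from 283 ± 16.6 to 402 ± 67.0 CPM (log2 fold change 0.51 ± 0.09, adjusted p = 0.0027). Pfkfb1 (-0.35 ± 0.09, adjusted p = 0.02) and Pdp1 (-0.38 ± 0.12, adjusted p = 0.044) fell. Pfkfb1 lost its call without night library 4 or day library 1 or 2 (adjusted p 0.054 to 0.058) and Pdp1 in 7 of the 8 fits that left out a ZT4 library (0.052 to 0.12), all but that without night library 4. Of 24 genes of insulin and growth signalling 2 rose and 1 fell, also near those shares. Sesn1 and Foxo3, which restrain growth in lack of energy, rose from 19.2 ± 0.775 to 33.6 ± 3.86 CPM and from 5.89 ± 0.204 to 8.66 ± 1.16 CPM. Sesn2, of the same family as Sesn1, went the other way, from 2.55 ± 0.329 to 1.83 ± 0.249 CPM (adjusted p = 0.02), and lost its call without night library 1 or 4 or day library 1 or 3 (0.053 to 0.068). Irs2, which links the insulin receptor to its kinase, had 15.9 ± 1.36 CPM with the night wheel and 22.8 ± 5.99 CPM with the day wheel and did not pass (adjusted p = 0.096).

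Of 23 genes known to respond to glucocorticoids 5 rose and none fell, beside 6.36% of all genes called higher and 6.78% called lower. The median log2 fold change was 0.33 with 21 of 23 above 0. DESeq2 called 9. Klf15, a factor of amino acid breakdown, had 38.4, 34.6, 34.6 and 26.2 CPM with the night wheel and 65.9, 55.8, 60.03 and 62.2 CPM with the day wheel (0.87 ± 0.13, adjusted p = 0.0008). Tsc22d3, also called GILZ, rose from 106 ± 2.25 to 180.5 ± 23.3 CPM, Arrdc2 from 13.6 ± 2.68 to 37.6 ± 11.3 CPM, and Glul, glutamine synthetase, from 135 ± 9.06 to 279 ± 55.1 CPM. Klf15 and Glul are also 2 of the 5 genes that rose among 23 of amino acid and polyamine metabolism, where none fell. The others with the smallest p there were the amino acid transporter Slc38a2, from 95.8 ± 23.3 to 163 ± 17.1 CPM, and Bckdhb, a subunit of the branched-chain keto acid dehydrogenase, from 30.8 ± 2.29 to 38.7 ± 1.25 CPM. In protein degradation and autophagy 4 of 26 genes rose and none fell, led by Gabarapl1, an autophagosome protein gene, from 39.4 ± 4.53 to 66.5 ± 10.9 CPM, and Fbxo30, a ubiquitin ligase gene, from 10.9 ± 0.538 to 15.1 ± 2.08 CPM.

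Of 28 chaperone genes 11 rose and 1 fell, beside 6.36% of all genes called higher and 6.78% called lower, and the median was 0.17. The 11 rises were the largest number in any list, but the lists differ in size, and 6 of 11 clock output factors rose. Dnaja1, a partner of HSP70, was at 29.4, 26.3, 25.1 and 26.2 CPM with the night wheel and at 52.3, 43.6, 47.8 and 46.9 CPM with the day wheel (log2 fold change 0.83 ± 0.16, adjusted p = 0.0055). Hsp90aa1, the inducible HSP90, named after its value was seen, rose from 36.0 ± 0.966 to 65.4 ± 4.91 CPM, and Dnajb5 from 206 ± 9.77 to 245 ± 4.73 CPM. Hspb8, a small heat shock protein gene and the single fall, went from 563 ± 40.8 to 494 ± 24.5 CPM (adjusted p = 0.03), and lost its call without night library 2 or 4 or day library 3 or 4 (0.05 to 0.11). Of 24 genes for the endoplasmic reticulum and the integrated stress response 4 rose and 1 (Sesn2) fell. The lumenal chaperones Hspa5, Hsp90b1 and Dnajb9 rose by 0.36 ± 0.05, 0.32 ± 0.05 and 0.36 ± 0.06. In the antioxidant list 1 of 18 genes passed, and that was Nfe2l2, the gene of the regulator NRF2, at 25.4, 23.0, 24.3 and 26.2 CPM against 36.1, 34.8, 38.9 and 42.0 CPM (0.62 ± 0.06, adjusted p = 1.1e-05). Its known targets in the list did not pass.

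Of 22 mechanical and myogenic genes 5 rose and none fell, beside 6.36% of all genes called higher and 6.78% called lower. The other 17 did not pass, and the median log2 fold change was 0.15 with 3 of 22 below 0. Xirp1, which encodes a repair protein at stressed Z-discs, had 133, 145, 115 and 162 CPM with the night wheel and 290.0, 251, 329.6 and 232 CPM with the day wheel (log2 fold change 0.99 ± 0.14, adjusted p = 0.00067). Its sister Xirp2 rose from 1616 ± 29.4 to 1854 ± 97.2 CPM. Ccn2, a matrix gene induced by strain, rose from 13.0 ± 1.89 to 23.8 ± 4.71 CPM, and Myf6, a myogenic factor of mature fibres, from 52.0 ± 4.44 to 66.9 ± 4.20 CPM. In calcium and calcineurin signalling 1 of 18 rose and 2 fell, a count near the shares of all genes called. The 2 NFAT genes with the smallest p moved apart, Nfatc1 by 0.29 ± 0.06 and Nfatc2 by -0.72 ± 0.15. At the neuromuscular junction 2 of 16 genes fell and 14 did not pass, also near the shares of all genes called (6.78% lower). The median of that list was 0.003. The 2 that fell were the organiser Agrn, from 19.4 ± 0.624 to 15.3 ± 0.552 CPM, and its receptor Lrp4, from 14.5 ± 1.55 to 11.3 ± 0.851 CPM. Musk, the kinase they activate, was at 18.8 ± 3.44 and 25.8 ± 6.03 CPM (adjusted p = 0.087, 0.032 without night library 4 and 0.017 in DESeq2).

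Fibre type genes did not pass. Over 12 slow-fibre genes edgeR called 0, with 0 at an unadjusted p below 0.05 and 0 in DESeq2. Atp2a2, the slow calcium pump, had 120.2, 192, 240.0 and 239 CPM against 115, 209.5, 402 and 233 CPM, and Mb, myoglobin, 2135 ± 265 against 2372 ± 609 CPM. The small differences of 0.28 and 0.15 in those genes turned to -0.09 and -0.02 without day library 3. Over 13 fast-fibre genes edgeR called 0, with 1 at an unadjusted p below 0.05 and 0 in DESeq2. Of 17 genes for solute carriers and ion transport regulators 4 rose and 1 fell, beside 6.36% of all genes called higher and 6.78% lower. Slc9a3r2, a scaffold of membrane transporters, had the smallest p of its list, with 27.1, 23.4, 22.5 and 26.6 CPM against 46.8, 47.5, 46.7 and 48.1 CPM (0.92 ± 0.07, adjusted p = 4.9e-07). Slc41a3, a magnesium transporter gene, fell from 147 ± 2.78 to 110.1 ± 7.36 CPM. In ribosome biogenesis 1 of 24 genes rose and none fell, no more than the shares of all genes called, and this was Nop58 by 0.25 ± 0.07 (adjusted p = 0.025). It lost the call in 6 of the 8 fits that left out a ZT4 library (0.05 to 0.087), all but those without day library 1 or 2.

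Of 9 endothelial markers 6 fell and none rose, beside 6.36% of all genes called higher and 6.78% called lower. All 9 log2 fold changes were below 0, with a median of -0.33. Cldn5, the tight junction protein of endothelium, had 12.4, 15.47, 13.9 and 15.6 CPM with the night wheel and 8.22, 8.38, 5.71 and 7.48 CPM with the day wheel (-0.94 ± 0.16, adjusted p = 0.0016). Cdh5, Esam, Vwf and the VEGF receptor gene Kdr fell by 0.37, 0.33, 0.37 and 0.47 on the log2 scale. Kdr lost its call without night library 2 or 4 or day library 1, 3 or 4 (adjusted p 0.05 to 0.061). The summed level of the 9 markers was 323.2 to 354.4 CPM in the night libraries and 261.6 to 291.9 CPM in the day libraries, with no overlap. In bulk muscle, fewer cells of a type and less RNA per cell cannot be told apart. Of 7 markers of smooth muscle and pericytes 2 fell, the pericyte genes Pdgfrb (-0.32 ± 0.07) and Kcnj8 (-0.42 ± 0.09), while Acta2, smooth muscle actin, had 32.3 ± 5.77 CPM with the night wheel and 48.5 ± 5.80 CPM with the day wheel and did not pass (adjusted p = 0.068, 0.024 in DESeq2). In the list of hypoxia and angiogenesis 4 of 24 rose and 4 fell. Vegfa, the main vessel growth factor, had 226, 210.2, 191 and 208 CPM against 260.2, 274, 317 and 327 CPM (0.50 ± 0.11, adjusted p = 0.011), and its receptor Flt1 rose from 36.1 ± 1.20 to 42.6 ± 0.538 CPM. Dll4, the Notch ligand of sprouting vessels, fell from 10.9 ± 0.619 to 8.14 ± 1.38 CPM, and Ankrd37, a hypoxia-induced gene, from 2.67 ± 0.317 to 1.66 ± 0.178 CPM. Flt1 (0.24 on the log2 scale) is itself expressed by endothelium and rose, unlike the 6 endothelial markers that fell. Dll4 (-0.41) fell as those markers did. The cause of these differences was not tested.

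Matrix genes were mostly lower without many calls. Of 24 collagen and matrix genes 23 had a log2 fold change below 0 and the median was -0.26, but 2 fell and 1 rose by the test, and DESeq2 called 8. Col1a2, a chain of type I collagen, had 293, 214, 220.1 and 172 CPM against 182, 132, 108 and 132 CPM, with 1 day library inside the night range (-0.70 ± 0.20, adjusted p = 0.036). Sparc, a matrix glycoprotein gene, fell by 0.44 (adjusted p = 0.049), and Serpinh1, the collagen chaperone HSP47, rose by 0.57 (adjusted p = 0.042). These calls were weak: with 1 ZT4 library left out, Col1a2 and Sparc each lost the call in 6 of 8 fits, all but those without night library 4 or day library 1, with adjusted p up to 0.1 and 0.14, and Serpinh1 in 7 of 8, all but that without day library 3, with adjusted p up to 0.1. Col1a1 had -0.77 ± 0.24 and did not pass (adjusted p = 0.054, 0.018 in DESeq2, and 0.035 without night library 4 and 0.02 without day library 1). Of 14 myokine genes 2 rose and 2 fell, beside 6.36% of all genes called higher and 6.78% called lower. The rise with the smallest p was Metrnl, from 3.94 ± 0.270 to 6.13 ± 0.688 CPM.

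Markers of other cells in the sample were also compared. Of 10 macrophage markers 1 fell, a count near the 6.78% of all genes called lower. It was Mrc1, from 14.3 ± 0.873 to 10.2 ± 1.36 CPM (adjusted p = 0.038). The summed level of the 10 macrophage markers was 128.1 to 156.5 CPM in the night libraries and 102.6 to 122.9 CPM in the day libraries. The summed fibroblast markers went the same way, at 816.1 to 1003 CPM and 625 to 826.5 CPM. So did the summed collagen and matrix genes, at 2034 to 2591 CPM and 1516 to 2150 CPM. Both of these sums hold Col1a1, so they are not separate observations. The part of macrophages and fibroblasts in the other lists was not tested. The call of Mrc1 was lost in 7 of the 8 fits without 1 ZT4 library (adjusted p 0.055 to 0.1), all but that without day library 1. Of 10 adipocyte markers 1 rose, a count near the 6.36% of all genes called higher. It was Plin4, from 232 ± 38.9 to 346 ± 44.0 CPM (adjusted p = 0.038). Its call was lost in 6 of the 8 fits, all but those without night library 1 or day library 2 (0.052 to 0.1). For the remaining lists edgeR called 0 at ZT4. At an unadjusted p below 0.05 and in DESeq2 the counts were 4 and 2 of 8 fibroblast markers, 1 and 1 of 7 Schwann cell and nerve markers, 1 and 0 of 5 satellite cell markers, 1 and 0 of 2 neutrophil markers, and 0 and 0 of 5 erythroid, 3 lymphocyte and 6 tendon markers. The neutrophil markers summed to 0.564 to 0.766 CPM in the night libraries and 0.0375 to 1.475 CPM in the day libraries, and 4 of the 6 listed did not reach the filter.

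**Figure D3:**
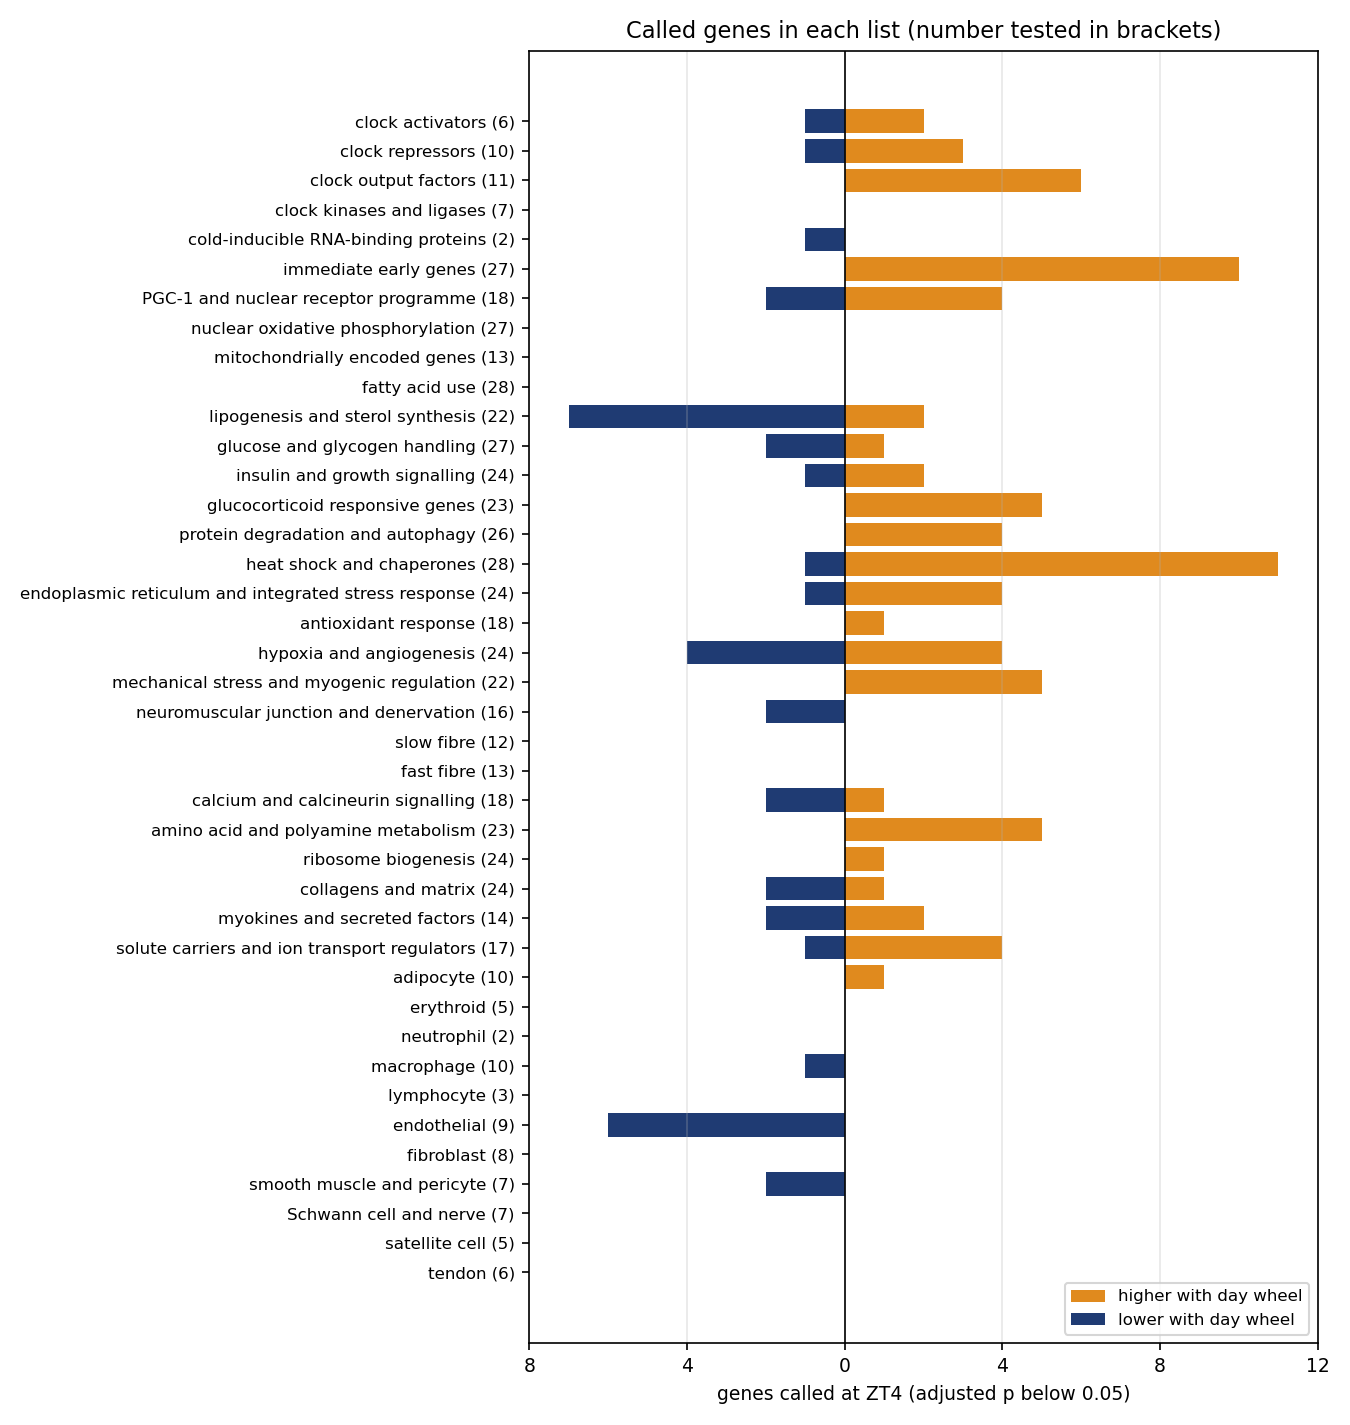
Number of genes called higher (bars to the right) and lower (bars to the left) with the day wheel at ZT4 in each gene list and cell marker list, with the number tested in brackets. Heat shock and immediate early genes have the most rises, 11 and 10, and the list of lipogenesis and sterol synthesis and the endothelial markers the most falls, 7 and 6, beside 6.36% of all genes called higher and 6.78% called lower.

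The schedule difference at ZT4 was not that seen at ZT16. At ZT16 82 genes (0.565%) were called, 40 higher and 42 lower with the day wheel. That count moved between 19 and 163 when 1 ZT16 library was left out and was 369 in DESeq2. It was 163 without night library 1, 51 without night library 2, 29 without night library 3, 36 without day library 2, 28 without day library 3 and 19 without day library 4. The libraries of the 2 times are different ones, but the spread of each gene was estimated from all 16, so the calls are not fully independent. At both times 47 genes were called, which is 2.46% of the ZT4 calls and 57.3% of the ZT16 calls. Of these 47, 46 had opposite directions, and the single gene with the same direction was Retsat, lower with the day wheel at both times (-0.24 and -0.35). Over all 1907 genes called at ZT4, 1281 (67.2%) had the opposite sign at ZT16, against 53.9% of all tested genes. The interaction itself was called for 1415 genes (9.74%), with the effect at ZT4 above that at ZT16 in 736 (5.07%) and below it in 679 (4.68%).

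Slc9a3r2 had the smallest interaction p. It was higher with the day wheel at ZT4, as given above, and lower at ZT16, at 31.3 ± 0.591 against 46.4 ± 5.13 CPM (log2 fold change -0.57, adjusted p = 0.001), which makes an interaction of 1.49 (adjusted p = 5.5e-08). Mcf2l, a guanine nucleotide exchange factor gene, had 10.8 ± 1.45 and 20.4 ± 1.87 CPM at ZT4 and 27.3 ± 1.38 and 18.7 ± 1.01 CPM at ZT16 for the night and day wheel. Atp6v1a, a subunit of the proton pump of lysosomes, had 17.3 ± 0.770 and 29.2 ± 1.49 CPM at ZT4 and 16.5 ± 1.49 and 13.6 ± 0.373 CPM at ZT16. Lrrc8a, part of the volume-regulated anion channel, had 12.2 ± 0.589 and 17.5 ± 0.666 CPM at ZT4 and 20.1 ± 1.32 and 14.1 ± 1.20 CPM at ZT16. Fgfr3, a growth factor receptor gene, had 2.12 ± 0.279 and 4.83 ± 0.533 CPM at ZT4 and 5.18 ± 0.684 and 3.02 ± 0.436 CPM at ZT16. Zfp512b and Wdr6 had the reverse pattern, lower with the day wheel at ZT4 (-0.57 and -1.10) and higher at ZT16 (0.24 and 0.53).

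**Figure D4:**
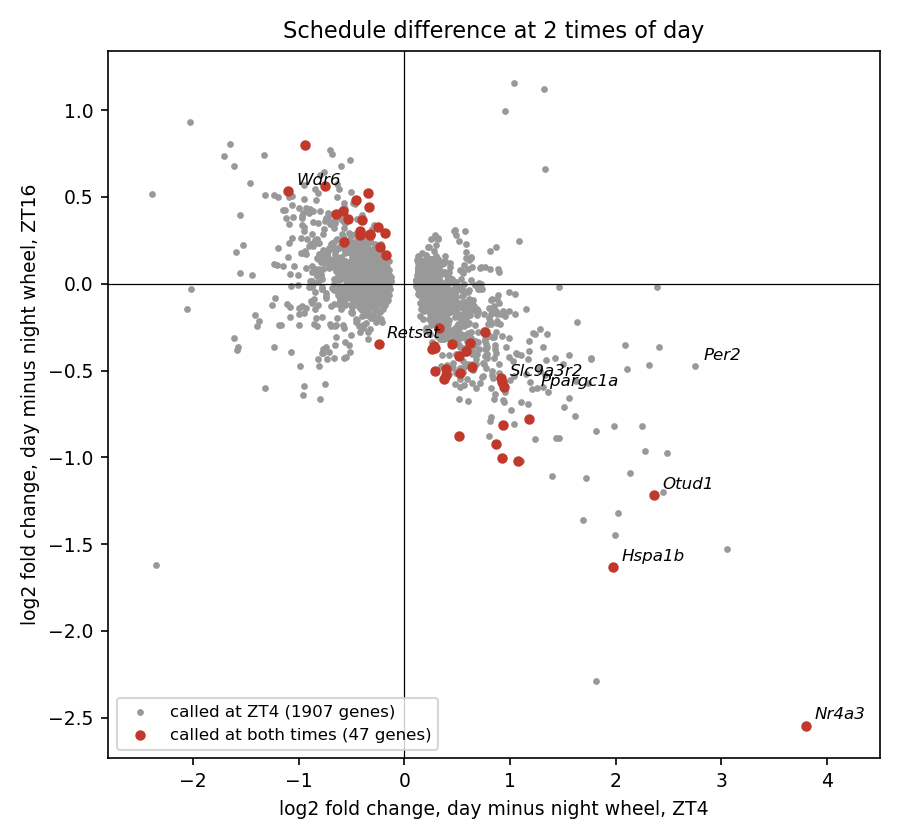
Log2 fold change of day against night wheel at ZT4 (horizontal) and at ZT16 (vertical) for the 1907 genes called at ZT4, with the 47 called at both times in red. Of the red points 46 lie in the quadrants of opposite sign, and Retsat is the exception.

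The quadriceps libraries of the series share no library with gastrocnemius and were compared after the results above were seen. In quadriceps taken at ZT3.5, 3 h after mice ran on a treadmill to exhaustion, against sedentary quadriceps at ZT4, edgeR called 1993 of the 14481 genes tested in both muscles (13.8%). Of these, 586 were also called between day and night wheel at ZT4, which is 30.8% of the gastrocnemius calls and 29.4% of the quadriceps calls, and 545 of the 586 had the same direction. The quadriceps groups held 3 libraries each. Library 3 right after the run had 27353187 counts, against 65687474 and 49417774 in libraries 1 and 2, and the part of depth in the calls was not tested. Right after the run, against sedentary quadriceps at ZT0, 1008 genes were called (6.96%), and 235 were shared (12.4% and 23.3% of the lists), 174 of them in the same direction. The muscle, the exercise and the harvest time all differ between these comparisons, and their parts cannot be told apart.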

How the data were processed

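RNA from snap-frozen gastrocnemius was made into stranded mRNA libraries and sequenced on 2 lanes. The deposited table holds estimated counts per gene, 2 lane columns for each of 40 libraries. The tools named in the submitters' processing notes are kallisto 0.46.2, bcl2fastq 2.20.0.422 and DESeq2 1.26.0, and the builds GRCm38.p6 and mm10. The 2 lanes were summed and rounded to whole numbers. Of 23621 gene IDs 23614 matched RefSeq's table, and 3288 rows were 0 in every library. The 16 gastrocnemius libraries were fitted together in edgeR 4.0.16 (R 4.3.3, limma 3.58.1; TMM scaling, filterByExpr with a minimum count of 10, robust quasi-likelihood), so they share 1 estimate of the spread. Contrasts were day minus night wheel at ZT4 and at ZT16, and their difference. P-values were Benjamini-Hochberg adjusted over all tested genes, with a threshold of 0.05. Fold changes are edgeR's, CPM use TMM-scaled totals, and estimated counts carry the mapping uncertainty of related genes.

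Named genes are the 12 largest rises and 12 largest falls (average log2 CPM of at least 1, no overlap), the genes of smallest p in each list (4 at most), all measured clock activators, repressors and output factors, and the 8 smallest interaction p. The comparison, the 29 gene lists, the 11 marker lists and this rule were chosen with earlier results of these data known. Alternatives were DESeq2 1.42.0, other scalings, no filter, the replicate block, single lanes, the 8 ZT4 libraries alone, and leaving out each library. On simulated counts of the ZT4 comparison with 14523 genes, the test recovered 76% of 100 genes changed 1.5-fold and 87% of 100 changed 2-fold. Some genes that the rule names are not reported here.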

Additional observations from a re-analysis of the deposited data

Results flagged for a closer look

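In 14 of 248 groups of 4 libraries (124 named genes at ZT4), 1 library stood apart from the other three by Dixon's criterion, which chance meets in about 1 group in 20. In the night wheel group the libraries above the rest were 1700001O22Rik at 39 CPM in library 4, Clock at 33.2 CPM in library 2, Per1 at 21.2 CPM in library 1, Nampt at 168 CPM in library 4, Musk at 23.9 CPM in library 4, Pdgfrb at 40.3 CPM in library 2, Zfp512b at 31.3 CPM in library 3. Below the rest of that group was Fgfr3 at 1.7 CPM in library 3. In the day wheel group the libraries above the rest were Cry2 at 49.4 CPM in library 4, Ciart at 5.59 CPM in library 4, Dbp at 51.9 CPM in library 4. Below the rest of that group were Hspa5 at 164 CPM in library 2, Flt1 at 41.8 CPM in library 1, Hspb8 at 457 CPM in library 3. Of the 14, library 4 of the day group held those of Cry2, Ciart and Dbp, which are all in the clock lists. Clock, Per1 and Nampt, also in those lists, were flagged in libraries of the night group.

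The schedule difference at ZT4 differed from that at ZT16 in 85 of the 124 named genes by edgeR's interaction test. The values that follow are the log2 fold change of day against night wheel at ZT4 minus that at ZT16. Most of these genes were named for their ZT4 difference or their interaction p, so the choice of genes raises that number and it is not set against the share of all genes. In 60 genes the ZT4 effect was above the ZT16 effect. The 20 largest differences were Nr4a3 6.35, Hspa1b 3.61, Otud1 3.58, Slc25a25 3.46, Banp 3.24, Per2 3.23, Atf3 3.07, Hspa1a 3.05, Ppargc1a 2.79, Lrrc52 2.38, Arrdc2 2.35, Abra 2.22, Per1 1.97, Fgfr3 1.96, Maff 1.93, Ppara 1.90, Ciart 1.87, Gbp10 1.85, Klf4 1.85 and Ccn2 1.79. The next 20 were Hsp90aa1 1.49, Slc9a3r2 1.49, Mcf2l 1.46, Coq10b 1.36, Dnaja1 1.34, Xirp1 1.30, Klf15 1.27, Glul 1.22, Gabarapl1 1.22, Tsc22d3 1.12, Ier5 1.12, Serpinh1 1.05, Atp6v1a 1.04, Lrrc8a 1.04, Irs2 1.04, Sesn1 1.00, Acta2 0.99, Nfe2l2 0.96, Metrnl 0.95 and Pparg 0.94. The smallest 20 were Lonrf3 0.83, Nfil3 0.78, Hk2 0.74, Vegfa 0.74, Foxo3 0.73, Per3 0.72, Wee1 0.66, Fbxo30 0.60, Nr1d2 0.57, Hlf 0.54, Myf6 0.53, Usp2 0.49, Dnajb9 0.44, Nfatc1 0.42, Hspa5 0.39, Hsp90b1 0.39, Flt1 0.34, Xirp2 0.24, Tef 0.23 and Dnajb5 0.23. In 25 genes the ZT4 effect was below the ZT16 effect, and the values were Sqle -2.45, Dusp10 -1.77, Trp53i11 -1.75, Gadd45b -1.75, Tnfaip2 -1.69, Wdr6 -1.63, Amigo3 -1.57, Npas2 -1.52, Foxo6 -1.50, Scd2 -1.36, Bhlhe41 -1.30, Cldn5 -1.27, Cited4 -1.14, Nfatc2 -0.92, Ankrd37 -0.91, Zfp512b -0.81, Pdp1 -0.61, Sesn2 -0.61, Slc41a3 -0.59, Dll4 -0.57, Lrp4 -0.45, Cdh5 -0.42, Cirbp -0.38, Pdgfrb -0.38 and Agrn -0.29.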

How the results depend on the processing

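The count of 1907 genes called at ZT4 was 2270 in DESeq2, 1793 with the replicate block and 1684 with no filter on low counts, and 1885, 1690 and 1665 of these were among the 1907. It was 1361 and 1351 from the single lanes and 2171 from the 8 ZT4 libraries alone. Leaving out 1 ZT4 library gave 1139 to 1650 calls, 593 to 825 higher and 546 to 825 lower. At ZT16, DESeq2 called 369 genes, 167 higher and 202 lower, and leaving out 1 library gave 19 to 163 calls, 5 to 63 higher and 14 to 100 lower. The cause was not tested. The interaction count was 1021 to 1567 with 1 library left out. Calls at both times were 12 to 83 with 1 library left out, 175 in DESeq2 (160 opposite) and 45 with the replicate block (43 opposite). Same-numbered day and night libraries at ZT4 had correlations of deviations of 0.1178, 0.0233, 0.1152 and 0.1524. Each day library correlated best with its own number, a hint from the data and not from the design, so the samples are not taken as pairs. With the replicate block Ciart (adjusted p = 0.033) and Musk (0.042) passed, Pdp1 (0.074), Col1a2 (0.058), Serpinh1 (0.069), Sparc (0.083) and Mrc1 (0.068) did not, and no other named gene's call changed. Other scalings moved the median of all genes to at most -0.0236. Signs turned in 4 named genes that did not pass. With 1 ZT4 library left out, Atp2a2 ranged from -0.0857 (without day library 3) to 0.5091, Mb from -0.022 (without day library 3) to 0.278, Nampt from -0.1193 to 0.0932 (without night library 4) and Rorb from -0.1497 (without night library 4) to 0.2219. Rorb was also below 0 without night library 2 (-0.0081) or day library 2 (-0.0872) and with upper-quartile scaling (-0.0033). Of the 103 named genes called at ZT4, 87 were called under every alternative run. Depth was 45010631 to 70033331 counts. Calls were fewer both from a single lane of the same libraries and with 1 library left out.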

Other observations

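Quadriceps of mice run on a treadmill to exhaustion was compared with sedentary quadriceps after the gastrocnemius results were seen. Some of the largest gastrocnemius differences had a counterpart 3 h after the run. Nr4a3 averaged 124 CPM against 7.19 CPM in sedentary quadriceps (log2 fold change 4.13, adjusted p = 0.0011) and was also higher right after the run (4.16, adjusted p = 0.0025). Ppargc1a was higher 3 h after the run (3.37, adjusted p = 2.1e-13) and not called right after it (-0.16, adjusted p = 0.41). Atf3 was higher at both times (4.12 and 3.21). Trp53i11 (-2.08) and Bcl6b (-2.85), which fell in gastrocnemius, were lower 3 h after the run. Others differed: Slc25a25 was higher right after the run (2.52, adjusted p = 0.0031) and lower 3 h later (-1.79, adjusted p = 0.014), and Igf2bp2, which fell in gastrocnemius, was higher 3 h after the run (1.34, adjusted p = 0.0059). Per2 was not called 3 h after the run (1.14, adjusted p = 0.1), nor was Klf15 (0.46, adjusted p = 0.16).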
